A study of Homo sapiens with 24 samples.

Results

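The genes described here are the subunits of the proteasome and the genes that load its peptides onto MHC class I, in human B-lymphoblastoid cells given calcitriol, estrogen or both. The members are 44 listed symbols, and 41 of them had a probe set with that symbol alone on the array, out of 18417 genes represented by 1 probe set each. PSMC5, PSMD7 and PSMD13 had none. Of the 41, 29 belong to the constitutive proteasome and its caps and 12 to the inducible side, which is the immunoproteasome, its PA28 activator, the loading and trimming genes and their transactivator NLRC5. Where a gene had several probe sets, the brightest on average stood for it.

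The data came from 24 Affymetrix arrays on total RNA of 2 HapMap cell lines, GM10855 and GM10861, each a culture of B cells of 1 donor transformed with Epstein-Barr virus. Each line had 4 groups of 3 arrays: untreated cells at 0 h, calcitriol at 36 h, estrogen at 36 h, and calcitriol and estrogen together at 36 h. No untreated cells were sampled at 36 h, so in a change against untreated cells the agent and 36 h in culture cannot be told apart. The sources used here give no dose, estrogen compound or vehicle. They do not say that a group's 3 arrays were separate cultures, so p-values measure only the spread between arrays, possibly technical. Because each line comes from 1 donor, a difference between the lines describes these lines only. In bulk RNA, fewer cells of a type and less RNA per cell cannot be told apart.

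Values are log2 signals, so a difference of 1 is a doubling, and a change was called at an adjusted p under 0.05 in limma. Array medians lay between 5.38 and 5.50, arrays of a group correlated at 0.985 to 0.993, and arrays of different lines at 0.978 to 0.984. Of 9 B cell markers, 6 were measured, at percentiles 78.1 to 99.5 of all genes, while T cell markers lay at 12.7 to 31.7 and monocyte markers at 4.15 to 44.1. Every member was well within the brighter genes: the lowest member mean, that of NLRC5, was 6.78, at percentile 70.7.

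The proteasome is the barrel-shaped protease that degrades ubiquitin-tagged proteins. Its outer rings are built from alpha subunits (PSMA genes) and its inner rings from beta subunits (PSMB genes), of which PSMB5, PSMB6 and PSMB7 carry the catalytic sites. A cap of ATPases (PSMC) and other subunits (PSMD) recognises, unfolds and feeds in the substrate. Interferons induce the replacement subunits PSMB8, PSMB9 and PSMB10, which form the immunoproteasome, and the PA28 activator of PSME1 and PSME2. Lymphoid cells, B-lymphoblastoid lines among them, express immunoproteasome subunits without added interferon. Peptides pass through the TAP1-TAP2 transporter into the endoplasmic reticulum, where ERAP1 and ERAP2 trim them and tapasin (TAPBP) helps load them onto class I heavy chains bound to B2M. NLRC5 is the transactivator of class I genes.

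Promoter sequence was not used to choose the members. The inducible side does hold genes introduced above as induced by interferon, so an interferon motif there is not independent of the grouping. The interferon-stimulated response element was searched as 2 copies of GAAA with any 2 bases between them, on both strands, with overlapping matches counted. Windows were the 250 bases before each listed start site, and a match before any start of a gene counted. The element was present in 63.6% of inducible-side promoters (7 of 11 with a window, NLRC5 having none). It was present in 7.41% of constitutive-side promoters (2 of 27, PSMB4 and PSMA4) and in 3.71% of the 27305 genes of the RefSeq promoter table (GRCh38.p14). The stretches below are shown because these 7 genes include members that differed between the lines and members that did not. Each is the matched motif with 25 bases before it and up to 25 after it, ending at most at the base before the start site, read 5′ to 3′ on the gene's strand, with the motif in capitals. In TAP1 the capitals read as the reverse complement. ERAP2 and TAP1 each have 2 listed starts, and their matches lie before the starts at 96876500 and 32853704.
ERAP2, chr5:96876445-96876499, plus strand: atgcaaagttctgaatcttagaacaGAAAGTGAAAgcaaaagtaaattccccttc
TAP2, chr6:32838763-32838822, minus strand: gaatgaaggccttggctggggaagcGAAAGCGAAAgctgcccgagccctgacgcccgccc
TAP1, chr6:32853798-32853863, minus strand: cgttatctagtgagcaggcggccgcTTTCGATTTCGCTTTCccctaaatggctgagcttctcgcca
TAPBP, chr6:33314079-33314123, minus strand: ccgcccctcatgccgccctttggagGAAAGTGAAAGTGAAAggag
PSME2, chr14:24146611-24146663, minus strand: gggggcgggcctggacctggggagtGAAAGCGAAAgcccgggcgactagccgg
B2M, chr15:44711348-44711413, plus strand: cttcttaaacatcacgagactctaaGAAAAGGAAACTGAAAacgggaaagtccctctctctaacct
PSMB10, chr16:67936851-67936896, minus strand: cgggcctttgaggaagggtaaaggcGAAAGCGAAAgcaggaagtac
The capitals of TAP1, TAPBP and B2M hold 2 overlapping matches. PSMB8, PSMB9, PSME1 and ERAP1 had no match in their windows, which says only that these letters are not there.

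Other motifs were looked for in the same windows. The gamma-interferon activation site, TTCNNNGAA, was in 18.2% of inducible-side windows (PSMB8 and TAP1), in 18.5% of constitutive-side windows and in 8.09% of all genes. The antioxidant response element, TGACNNNGC, the motif read by the proteasome regulator NFE2L2, was in 27.3% of inducible-side windows, 18.5% of constitutive-side windows and 13.2% of all genes. TAP1 and PSMB9 lie head to head on chromosome 6, with start sites 488 bases apart, and PSMB8 lies between TAP2 and TAP1. ERAP1 and ERAP2 are neighbours on chromosome 5.

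The first question was whether calcitriol or estrogen altered these genes. None of the 41 members was called in any of the 7 agent comparisons or in the interaction of the agents (limma, Benjamini-Hochberg over all probe sets with a symbol). The share of all genes called was 0.722% for calcitriol against untreated, 0% for estrogen against untreated and 1.15% for both agents against untreated. It was 0.494% for the mean of the 3 treated groups against untreated, 0.776% for calcitriol added to estrogen, 0% for estrogen added to calcitriol, 0.592% for calcitriol against estrogen and 0% for the interaction. With so few genes called in all, a count of 0 among 41 members is near the background. At an unadjusted p under 0.05 the members numbered 1 for calcitriol (2.44%, against 6.65% of genes), 0 for estrogen (5.22% of genes) and 5 for both agents (12.2%, against 10.8% of genes). They numbered 2 for the treated mean (4.88%, against 7.83% of genes) and 3 for calcitriol added to estrogen (7.32%, against 8.03% of genes). Estrogen added to calcitriol gave 1 (2.44%, against 7.95% of genes). Calcitriol against estrogen gave 1 (2.44%, against 7.57% of genes) and the interaction 0 (4.41% of genes).

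**Figure D1:**
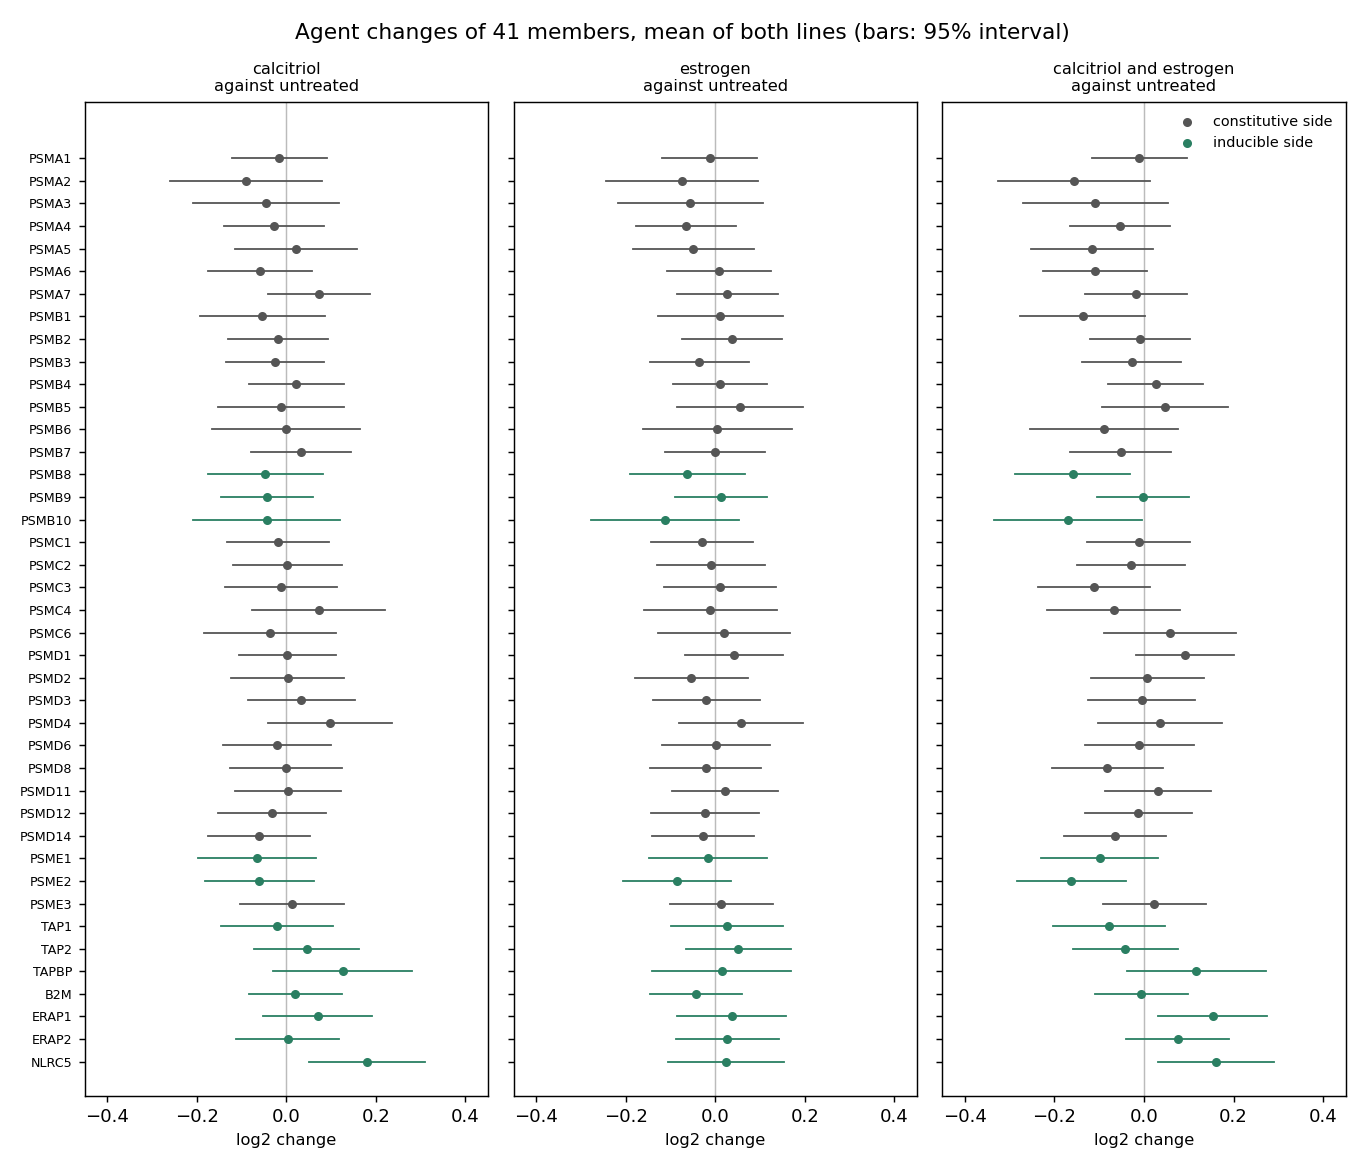
Log2 change of each of the 41 members against untreated cells, as the mean of both lines, for calcitriol, estrogen and both agents. Points are limma estimates and bars 95% intervals; no member was called in any panel, and the estimate farthest from 0 is that of NLRC5 with calcitriol, 0.18.

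The 95% intervals are for each gene by itself and for the mean of both lines, with no allowance for taking the largest. They measure only the spread between arrays, possibly technical, so larger changes are not excluded. In GM10855 alone some estimates were larger, with PSMB8 at -0.31 under both agents. For calcitriol against untreated the bound farthest from 0 among the members was a log2 change of 0.31 (NLRC5), or 1.24-fold, and for estrogen it was 0.28 (PSMB10). For both agents it was 0.33 (PSMB10), or 1.26-fold, and for calcitriol added to estrogen 0.29 (PSMB1), or 1.22-fold. The median half-width of the 95% interval was 0.121 for members and 0.153 for all genes. Between arrays of a group the members had a median residual SD of 0.0898, against 0.130 for all genes. It was 0.0993 for the 5395 genes at least as bright as the lowest member. That set is not matched to the members in brightness, since 26 members had a mean of 9 or more, as did 755 of all genes.

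NLRC5 had the lowest p among the members with calcitriol. In GM10855 its log2 signal was 6.84, 6.54 and 6.84 on the untreated arrays and 6.92, 6.92 and 6.78 with calcitriol. In GM10861 it was 6.65, 6.76 and 6.52 untreated and 6.88, 6.82 and 6.91 with calcitriol. The groups did not overlap in GM10861 and overlapped in GM10855. The change over both lines was 0.18 ± 0.0625 (SE, adjusted p = 0.426 in limma), and calcitriol against estrogen gave 0.15 (adjusted p = 0.514). The other members with the smallest p for calcitriol were TAPBP (0.13) and PSMD4, the ubiquitin receptor of the cap (0.10), above 0, and PSMD14, its deubiquitinase (-0.06), PSMA2 (-0.09) and PSMA6 (-0.06), below 0. Their adjusted p ranged from 0.875 to 0.963.

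With both agents against untreated, the members with the smallest p below 0 were on the inducible side. PSME2 had a log2 change of -0.16 ± 0.0585 (adjusted p = 0.255 in limma), PSMB8 of -0.16 ± 0.0623 (adjusted p = 0.304) and PSMB10 of -0.17 ± 0.0797 (adjusted p = 0.442). Above 0 stood ERAP1 at 0.15 ± 0.0588 (adjusted p = 0.293), NLRC5 at 0.16 ± 0.0625 (adjusted p = 0.298) and PSMD1, a scaffold of the cap, at 0.09. None of these passed the test. Without untreated array 1 of GM10855 (arrays of a group numbered in sample order), on which PSMB10 read 7.53 beside 7.05 and 7.23, the PSMB10 change was -0.10 (adjusted p = 0.712). The median change was -0.0238 over the 12 inducible-side members and -0.0179 over the 29 constitutive-side members, beside -9.05e-05 over all genes. The comparisons against untreated share the same untreated arrays, so they are not independent of one another.

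Estrogen against untreated gave 0 calls among all genes as well. The members with the smallest p were TAP2 (0.05), PSMD4 (0.06) and PSMB5 (0.06) above 0 and PSME2 (-0.08), PSMB10 (-0.11) and PSMA4 (-0.06) below 0, with adjusted p from 0.968 to 0.983. The mean of the 3 treated groups against untreated was 0.12 for NLRC5, 0.09 for ERAP1 and 0.09 for TAPBP, and -0.10 for PSME2, -0.09 for PSMB8 and -0.11 for PSMB10, with adjusted p of at least 0.542. Other immunoproteasome and loading genes were near 0 there, with PSMB9 at -0.01, TAP1 at -0.02 and TAP2 at 0.02. Without untreated array 1 of GM10855 the values were -0.05 for PSMB8, -0.04 for PSMB10, 0.03 for TAP1 and 0.04 for TAP2, and without untreated array 2 of that line NLRC5 was at 0.07.

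Comparisons among treated groups are matched at 36 h. When calcitriol was added to estrogen, NLRC5 (0.14), ERAP1 (0.12) and TAPBP (0.10) had the smallest p above 0, and PSMB1 (-0.15), PSMA6 (-0.12) and the ATPase PSMC3 (-0.12) below 0 (adjusted p 0.59 to 0.824). PSMA6 was at -0.08 without estrogen array 1 of GM10855. When estrogen was added to calcitriol, PSMD1 (0.09), ERAP1 (0.08) and PSMC6 (0.09) stood above 0 and PSMA5 (-0.14), PSMC4 (-0.14) and PSMB8 (-0.11) below (adjusted p 0.597 to 0.76). Calcitriol against estrogen gave TAPBP 0.11 and B2M 0.06 above 0, besides NLRC5, and PSMA6 -0.07, PSMB9 -0.06 and PSMB2 -0.06 below. In the interaction of the agents the smallest p belonged to TAP2 (-0.14), PSMA7 (-0.12) and PSMD4 (-0.12) below 0 and to PSMC6 (0.07), PSMD2 (0.06) and PSMD1 (0.05) above, all at an adjusted p of 0.992.

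The lines were also taken one at a time, and the smallest adjusted p was in GM10855 with both agents. There ERAP1 was 0.31 ± 0.0832 above untreated (adjusted p = 0.0526 in limma), PSMB8 -0.31 ± 0.0880 (adjusted p = 0.0583) and ERAP2 0.26 ± 0.0784 (adjusted p = 0.0908). TAP1 was at -0.27 and PSMD1 at 0.23 (both adjusted p = 0.107), and TAP2 at -0.24 (adjusted p = 0.136). Single arrays of GM10855 decide how near these values come. Without untreated array 1 TAP1 was at -0.17 (adjusted p = 0.401), and PSMB8 at -0.23 (adjusted p = 0.255). Without untreated array 3 PSMB8 (-0.37, adjusted p = 0.0444) and ERAP1 (0.36, adjusted p = 0.0408) passed the threshold, and without array 2 of both agents PSMB8 passed it (-0.38, adjusted p = 0.0286). In GM10855, 8 of 41 members had an unadjusted p under 0.05 in this comparison, 19.5% against 15.1% of genes. The same 6 genes in GM10861 gave 0.0011 for ERAP1, -0.0033 for PSMB8, -0.11 for ERAP2, 0.11 for TAP1, -0.05 for PSMD1 and 0.15 for TAP2. For calcitriol added to estrogen in GM10855, matched at 36 h, TAP2 was at -0.30 (adjusted p = 0.0955 in limma). Without estrogen array 2 of GM10855 it was at -0.39 and passed the threshold (adjusted p = 0.0191).

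The difference in response between the lines was tested itself, and no member was called in any of its 8 forms. For both agents against untreated the smallest p belonged to TAP2, with a difference in log2 change (GM10861 minus GM10855) of 0.39 ± 0.113 (adjusted p = 0.209 in limma), followed by ERAP2 at -0.36 ± 0.111 (adjusted p = 0.233) and TAP1 at 0.38 ± 0.121 (adjusted p = 0.241). At an unadjusted p under 0.05 there were 6 of 41 members, 14.6% against 11.2% of genes. The share of all genes called was 0.00543% for the treated mean, 0.0109% for calcitriol, 0% for estrogen and 0.0163% for both agents against untreated. It was 0.00543% for calcitriol added to estrogen, 0% for estrogen added to calcitriol, 0.0271% for calcitriol against estrogen and 0% for the interaction.

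The levels themselves differed between the lines. On the deposited scale 18 of the 41 members were called between GM10861 and GM10855 over the 4 agents (limma), which is 43.9% beside 42.3% of all genes, so the share of members called was near the background. Of these, 11 were higher in GM10861 (23.6% of all genes were) and 7 were lower (18.7% of all genes). The directions fell along the division of the list. On the inducible side 7 of 12 were lower and 1 was higher, while on the constitutive side 0 of 29 were lower and 10 were higher. After cyclic loess, another scaling between arrays, the inducible side had 8 lower and 1 higher, but the constitutive side had 8 lower and 3 higher, so its direction depends on the scaling.

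ERAP2 and TAP1 had the largest line differences among the members. ERAP2, an aminopeptidase of the endoplasmic reticulum, ranged over the 12 arrays of GM10855 from 9.44 through a median of 9.70 to 9.89, and over the 12 arrays of GM10861 from 8.88 through 9.03 to 9.20. The lines did not overlap. The difference was -0.65 ± 0.0392 (SE, adjusted p = 1.35e-12 in limma), so GM10861 stood at 0.637 of the level of GM10855. TAP1, the transporter subunit, ranged from 9.38 through 9.62 to 9.93 in GM10855 and from 8.99 through 9.09 to 9.24 in GM10861. It too did not overlap, at -0.51 ± 0.0426 (adjusted p = 5.26e-10).

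ERAP1, the neighbouring aminopeptidase, ran the other way. Its log2 signal ranged from 8.55 through 8.75 to 8.97 in GM10855 and from 8.97 through 9.08 to 9.22 in GM10861, with the highest array of the one line just under the lowest of the other. The difference was 0.31 ± 0.0416 (adjusted p = 1.04e-06 in limma). ERAP1 was the one inducible-side member called higher in GM10861, both on the deposited scale and after cyclic loess.

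**Figure D2:**
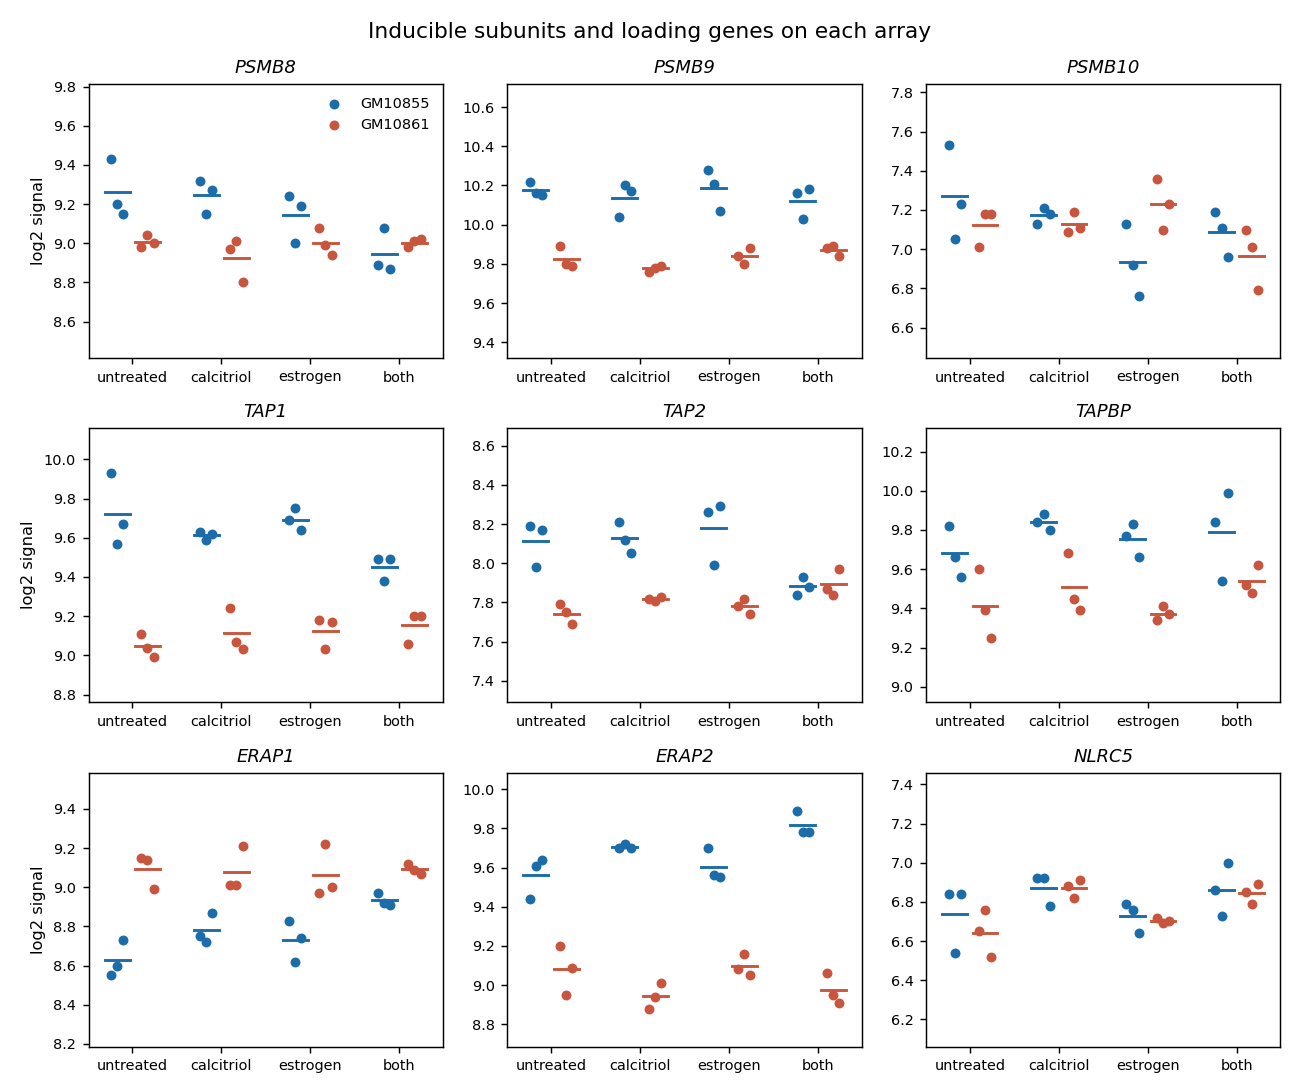
Log2 signal of 9 inducible-side members on each of the 24 arrays, by line (colour) and agent (horizontal axis); points are arrays and horizontal bars group means, and every panel spans the same log2 range. TAP1, PSMB9 and ERAP2 are lower and ERAP1 higher in GM10861 with no overlap over 12 and 12 arrays, while PSMB10 and NLRC5 overlap throughout.

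The catalytic immunoproteasome subunits differed from one another. PSMB9 ranged from 10.03 through 10.17 to 10.28 in GM10855 and from 9.76 through 9.82 to 9.89 in GM10861, without overlap, and its difference was -0.33 ± 0.0350 (adjusted p = 3.43e-08 in limma). PSMB8 overlapped between the lines and differed by -0.16 ± 0.0440 (adjusted p = 0.00389). PSMB10 ranged from 6.76 through 7.13 to 7.53 in GM10855 and from 6.79 through 7.11 to 7.36 in GM10861. Its difference was -0.0054 ± 0.0563 (adjusted p = 0.952), with a 95% interval from -0.12 to 0.11.

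The rest of the loading complex was lower in GM10861 as well. TAP2 differed by -0.27 ± 0.0401 (adjusted p = 6.42e-06 in limma), tapasin (TAPBP) by -0.31 ± 0.0531 (adjusted p = 3.72e-05) and B2M, the light chain of class I, by -0.14 ± 0.0353 (adjusted p = 0.00248). The PA28 activator was not called: PSME1 was at 0.01 (adjusted p = 0.866) and PSME2 at -0.01 (adjusted p = 0.838). NLRC5 was at -0.04 ± 0.0442 (adjusted p = 0.523), with a 95% interval from -0.13 to 0.05. All 7 members called lower kept that call after centring each array on its median and without each array in turn. They kept it after cyclic loess too, but that scaling lowered their values (PSMB8 from -0.16 to -0.26), so that is a weak check. PSME2 was called lower only after cyclic loess, at -0.11 (adjusted p = 0.0251 in limma), as were 8 constitutive-side members.

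Set beside the promoter stretches, the motif was present in members that were lower in GM10861 and in members that were not called. ERAP2, TAP1, TAP2, TAPBP and B2M held the interferon-stimulated response element and were lower, whereas PSMB10 and PSME2 held it and were not called on the deposited scale. PSMB9 and PSMB8 had no match in their windows and were lower. The TAP1 matches, 119 to 134 bases before its start, lie between the head-to-head starts of TAP1 and PSMB9, 488 bases apart. They fall beyond the 250 bases searched for PSMB9, so TAP1 with and PSMB9 without the motif reflects the window used.

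Several of these genes carry more than 1 probe set. PSMB8, PSMB9 and TAP1 each had 3 with identical values, so these are not separate measurements. The 3 probe sets of TAP2 gave line differences of -0.25 to -0.28, and those of TAPBP -0.30 to -0.31. The 2 probe sets of PSMC1 gave 0.09 and 0.08, neither called. Those of PSMC6 disagreed: the brighter one, which stood for the gene, gave 0.08 (adjusted p = 0.197 in limma) and the other 0.21 (adjusted p = 0.000435). Whether a sequence difference between the lines under the probes, in the MHC or in ERAP1 and ERAP2, moves any of these values was not tested.

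On the constitutive side, 10 members were called higher in GM10861 on the deposited scale. PSMD12, a cap subunit, did not overlap between the lines: it ranged from 7.74 through 7.90 to 8.01 in GM10855 and from 8.05 through 8.22 to 8.32 in GM10861, a difference of 0.31 ± 0.0411 (adjusted p = 1.41e-06 in limma). The nuclear activator PSME3 was 0.23 ± 0.0395 higher (adjusted p = 4.36e-05) and the alpha subunit PSMA4 0.22 ± 0.0381 higher (adjusted p = 4.8e-05). These 3 kept their calls after cyclic loess, at 0.22, 0.14 and 0.13. The other 7 were PSMB1 (0.21), PSMA3 (0.18), PSMD6 (0.18), PSMC3 (0.17), PSMD1 (0.14), PSMD8 (0.12) and PSMD14 (0.11), and after cyclic loess they were not called, with adjusted p from 0.0562 (PSMB1) to 0.755 (PSMD14). PSMD8 also lost its call without any 1 of 5 arrays: untreated 2, calcitriol 2 and both agents 2 of GM10855, and calcitriol 2 and estrogen 3 of GM10861. PSMD14 lost its call without either of 2 arrays, both agents 3 of GM10855 and both agents 2 of GM10861.

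Signal level moved with the line difference over all genes, and the members are bright. Among the 755 genes with a mean log2 signal of 9 or more, which hold 26 of the 41 members, the median line difference was 0.104 on the deposited scale and 0.012 after cyclic loess. Among the 5847 genes with a mean under 5 it was -0.0395 and -0.0031. The constitutive-side median of 0.0628 on the deposited scale was thus below that of genes of like brightness, and after cyclic loess it was -0.0295. The inducible-side medians were -0.152 and -0.243. Cyclic loess called 4 members higher and 16 lower in all, 11 of the 18 calls being shared with the deposited scale, while 21.0% of all genes were called higher and 18.4% lower. The 9 members called lower only after cyclic loess were PSMA6, PSMA7, PSMB2, PSMB5, PSMB7, PSMC2, PSMC4, PSMD3 and PSME2, at -0.0994 to -0.173.

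**Figure D3:**
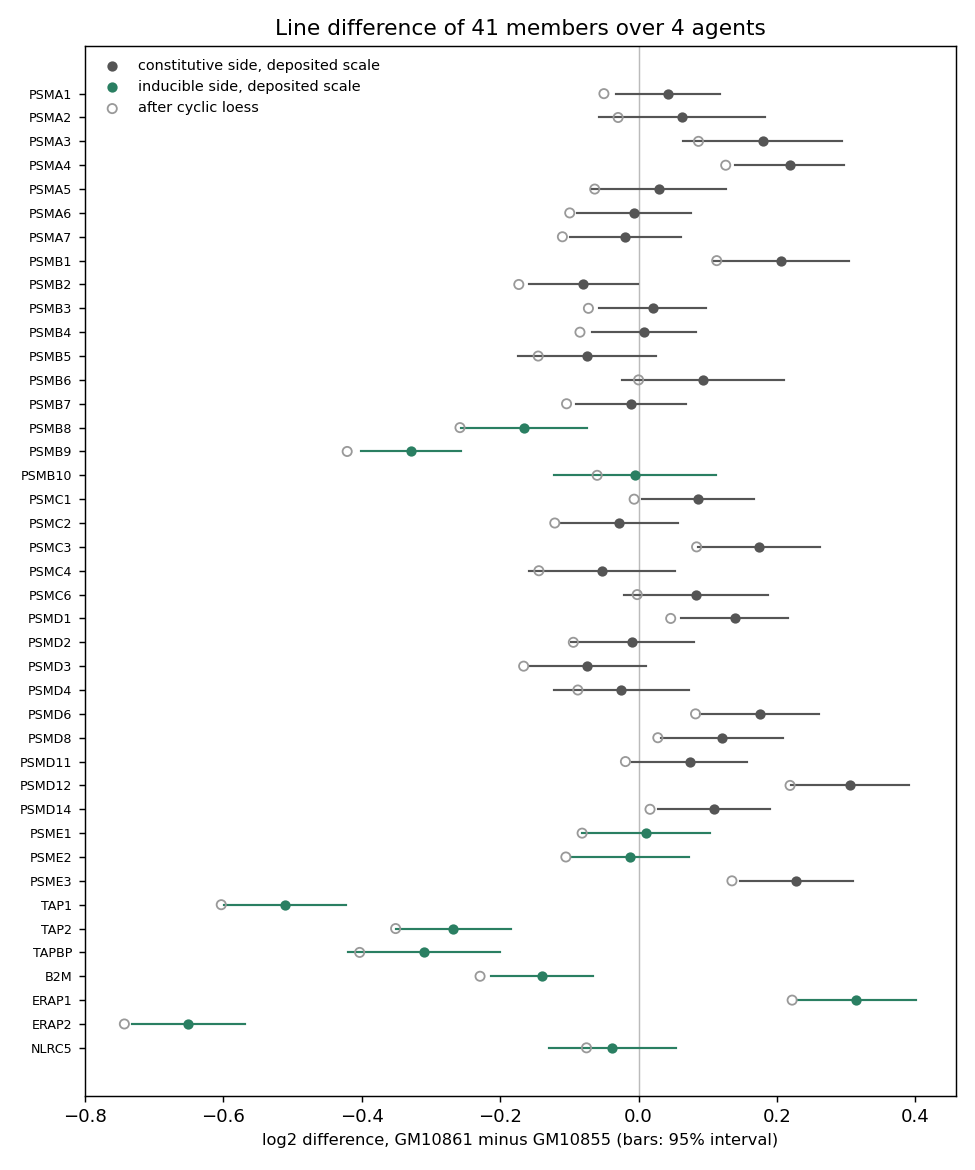
Log2 difference between the lines (GM10861 minus GM10855, mean over 4 agents) for the 41 members. Filled points with 95% intervals are on the deposited scale, coloured by side, and open circles are after cyclic loess, which moves the members to the left. ERAP2, TAP1, PSMB9, TAP2, TAPBP, PSMB8 and B2M are lower on both scales. The constitutive-side median changes from 0.0628 to -0.0295, while PSMD12, PSME3 and PSMA4 stay called higher.

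Partner subunits can also be compared within an array. PSMB8, PSMB9 and PSMB10 replace PSMB5, PSMB6 and PSMB7 in the immunoproteasome. The log2 difference PSMB9 minus PSMB6 changed by -0.42 ± 0.0539 (SE) from GM10855 to GM10861, and its values ranged from 0.91 to 1.30 over the arrays of GM10855 and from 0.52 to 0.86 over those of GM10861, without overlap. PSMB8 minus PSMB5 changed by -0.09 ± 0.0460 and PSMB10 minus PSMB7 by 0.0059 ± 0.0468. PSMB5 (-0.07), PSMB6 (0.09) and PSMB7 (-0.01) were themselves not called between the lines on the deposited scale. No test was made on these differences. A value away from 0 means unequal change within a pair, and only PSMB9 minus PSMB6 was without overlap between the lines. Against untreated, the pair with the largest change under both agents was PSMB8 minus PSMB5, at -0.21 ± 0.0650.

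The size of the line difference varied with the agent for some genes. In untreated cells TAP1 differed by -0.68, with calcitriol by -0.50, with estrogen by -0.57 and with both agents by -0.30. TAP2 went from -0.37, -0.31 and -0.40 to 0.01 with both agents, and PSMB8 from -0.26, -0.32 and -0.14 to 0.05. On the arrays themselves, TAP2 in GM10855 was 8.19, 7.98 and 8.17 untreated and 7.84, 7.93 and 7.88 with both agents, whereas in GM10861 it was 7.79, 7.75 and 7.69 and then 7.87, 7.84 and 7.97. PSMB9 held at -0.35, -0.36, -0.35 and -0.25. PSMB10 differed by -0.14, -0.05, 0.29 and -0.12, so its mean near 0 over the agents combines opposite signs. ERAP2 differed by -0.48, -0.76, -0.51 and -0.85, and ERAP1 by 0.46, 0.30, 0.34 and 0.16. The tests of these changes of response are those given above, and none passed.

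Over 12 and 12 arrays the lines did not overlap for 5 of the 41 members, PSMB9, TAP1, ERAP2, PSMD12 and ERAP1, beside 10.9% of all genes. The other 36 overlapped.

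The other genes of the pathway were taken from lists chosen by role, of which 63 of 75 had a probe set of their own. In the agent comparisons 1 was called, IFIT1, an antiviral gene of the interferon response, with a log2 change of -0.35 ± 0.0748 under both agents against untreated (adjusted p = 0.0155 in limma). GBP2, an interferon-induced GTPase, was nearest after it in that comparison at -0.31 (adjusted p = 0.0764). In calcitriol against untreated, the B cell markers CD79A and PAX5 were higher by 0.85 and 0.26 (adjusted p = 4.82e-09 and 0.0199 in limma). In calcitriol added to estrogen, matched at 36 h, they were higher by 0.78 and 0.32 (adjusted p = 3.56e-08 and 0.00239). In calcitriol against estrogen CD79A was called (0.82) and PAX5 was not.

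Between the lines the interferon list moved with the inducible side. Of its 17 measured genes 16 were called lower in GM10861 and 1 higher, with a median of -0.421 on the deposited scale, beside 18.7% of all genes lower and 23.6% higher. After cyclic loess the counts were again 16 and 1, beside 18.4% and 21.0%, and after centring on the median 15 and 1. By the smallest p the lower genes were GBP2 (-1.37), CXCL10 (-1.62), IFI44 (-0.74), XAF1 (-0.70), IFIT1 (-0.82) and IFI35 (-0.74), and the higher one was GBP4 (0.77). Among 18 regulators 10 were lower and 5 higher on the deposited scale. After cyclic loess 11 were lower and 4 higher, and after centring on the median 9 and 6. IRF1, a transcription factor of interferon response elements, was lower, at -0.53 ± 0.0476 (adjusted p = 1.65e-09 in limma), and IRF7 (-0.29), IRF9 (-0.25), IRF2 (-0.24), NGLY1 (-0.21) and NFE2L1, a regulator of proteasome genes (-0.31), were lower too. The subunits of the complexes that bind class I and class II promoters did not move one way: RFXAP (0.70) and NFYB (0.45) were higher, RFXANK (-0.17) and NFYA (-0.23) lower, and RFX5 (0.05) and NFYC (0.10) not called. CREB1 (0.25), NFKB1 (0.37) and CIITA, the class II transactivator (0.11), were higher on the deposited scale. The part of any of these genes in the difference of the members was not tested.

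Proteasome assembly factors and further subunits had 10 of 16 called higher and 0 lower on the deposited scale, beside 23.6% of all genes higher, and 4 higher and 0 lower after cyclic loess, near the 21.0% of all genes. The largest were the chaperones PSMG1 (0.38) and PSMG2 (0.35) and the deubiquitinases UCHL5 (0.33) and USP14 (0.20), with PSMF1 (0.14) and PSMD5 (0.17) after them by p. Of 7 cytosolic peptidases 4 were higher, BLMH (0.44), IDE (0.23), TPP2 (0.13) and THOP1 (0.13), and 2 lower, NRDC (-0.23) and LAP3 (-0.16), and after cyclic loess 2 were higher and 2 lower. Of 5 measured loading chaperones and class I-like genes 3 were lower, MR1 (-0.31), TAPBPL (-0.12) and CALR (-0.10), and with arrays centred on the median 1 was lower and 1 higher. The B cell markers differed too, 4 of 6 being higher and 1 lower, with CD22 at 1.73 and CD40 at -0.52, and their part in the members' difference was not tested.

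**Figure D4:**
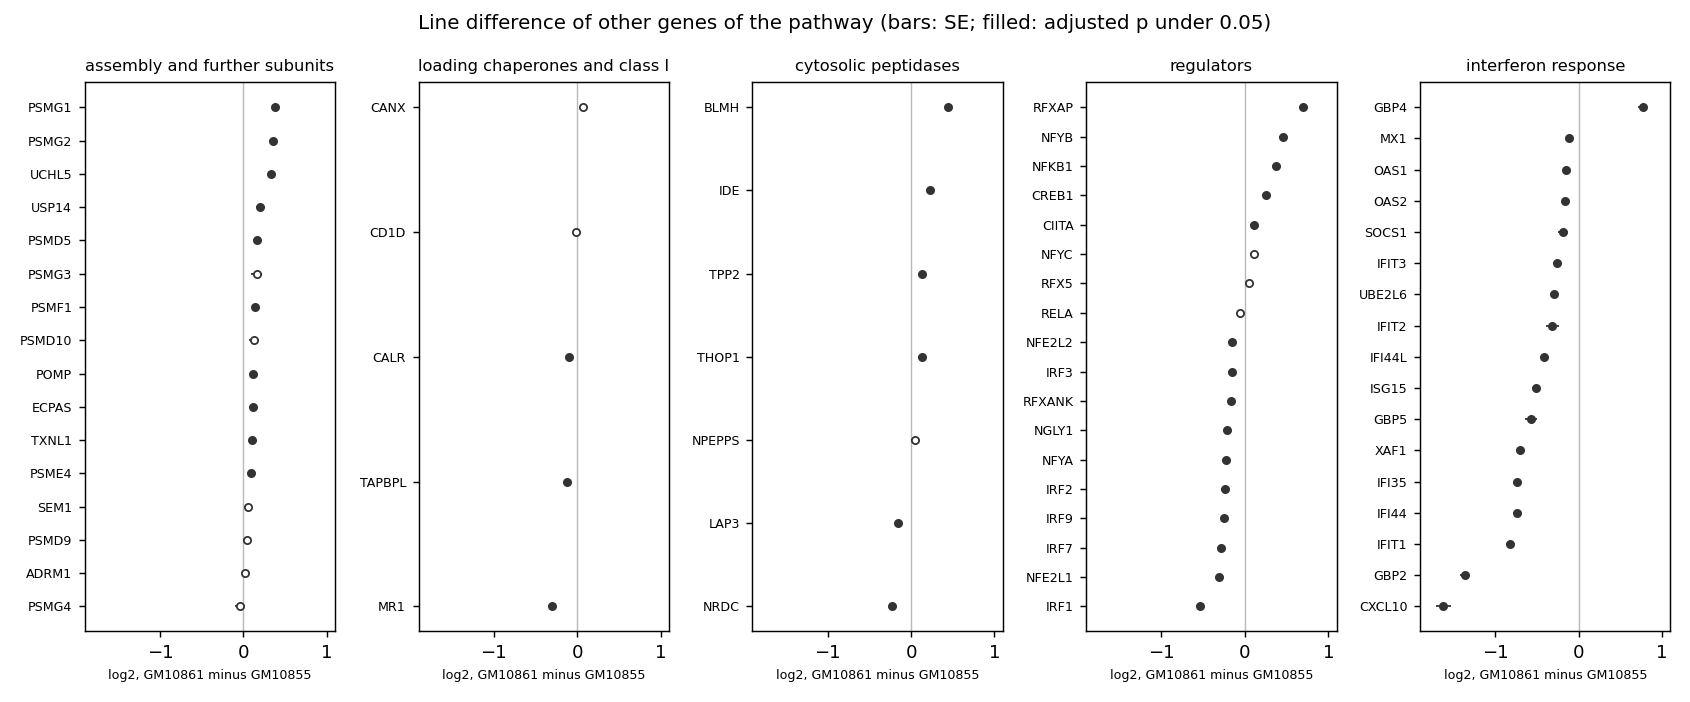
Log2 difference between the lines (GM10861 minus GM10855) of 63 other genes of the pathway in 5 lists, with SE bars; filled points were called in limma. Of the interferon response genes 16 of 17 lie below 0, while assembly factors and further subunits lie above or near 0 on the deposited scale.

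Members were also followed from array to array within a group. Over the 24 arrays, after group means were removed, the correlation between 2 constitutive-side members had a median of 0.27 (81.5% of 406 pairs above 0). It was 0.11 between 2 inducible-side members and 0.14 between genes at least as bright as the lowest member, a set not matched to the members in brightness. TAP1 and PSME1 reached 0.79, and the neighbours TAP1 and PSMB9 0.36. These values are descriptions over arrays that share their normalisation and labelling, and they carry no test.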

How the data were processed

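Per the submitters' processing notes, the authors deposited log2 probe set signals summarised by RMA (Affymetrix Expression Console 1.0.1). RMA equalises the array distributions, which removes changes common to most genes and compresses low folds. Of 33297 probe sets, 19460 had 1 symbol, 1754 several and 12083 none. R 4.3.3 with limma 3.58.1 fitted 8 group means to all 24 arrays, with 16 residual degrees of freedom. Agent contrasts were averaged over both lines. Two-sided p-values were adjusted by Benjamini-Hochberg over the 21214 probe sets with a symbol. The scripts were tested on simulated data. The number of arrays limits the precision, and no detection limit was applied. Members and lists were chosen with earlier results of these data known. Named were called members, up to 12 in each direction by p, otherwise the 3 of smallest p each way, the inducible-side and catalytic members always, and up to 6 list genes in each direction. Genes named one line at a time were chosen after their values were seen.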

Additional observations from a re-analysis of the deposited data

How the results depend on the processing

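The alternatives were a minimum mean log2 signal of 5, all probe sets, centring on the median, cyclic loess, trend and robust eBayes, array weights, the mean of a gene's probe sets, a fit of only the arrays compared and leaving out each array in turn. The count of members called was 0 in each agent comparison over both lines under every alternative run (limma). For the line difference it ranged from 17 to 20. The split was 11 higher and 7 lower on the deposited scale, 12 and 7 after centring on the median or with the mean of a gene's probe sets, 12 and 8 with trend and robust eBayes, 4 and 16 after cyclic loess, and 10 to 12 and 7 under the others. Leaving out 1 array moved the line count between 17 and 19. No member called on the deposited scale changed sign. No paired analysis was possible because the labels give the arrays no replicate numbers. Signal over background could not be judged without detection values, and 3 arrays a group limit what can be called.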
